A study of Mus musculus with 18 samples.

Results

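The 32 genes described here encode the folding chaperones of the endoplasmic reticulum (ER), their partners in disulfide formation, the sensors of the unfolded protein response, and parts of the ER-associated degradation and translocation machinery. They were chosen by name, with earlier results of these data known. All 32 had a row in each of the 2 deposited tables, out of 54279 rows per table. RNA came from oligodendrocyte progenitor cells (OPCs) of the mouse, the cells from which myelin-forming oligodendrocytes arise, which had been derived from epiblast stem cells. The untreated experiment held CRISPR control OPCs and CRISPR Vhl OPCs. The drug experiment held the same 2 kinds of cell, grown for a day and then given DMSO or 300 nM AZD8330, which blocks the kinases MEK1 and MEK2, for 14 hours. All cells were grown with Fgf2 and Pdgfa, and each of the 6 groups had 3 libraries, lettered A to C. The labels do not say whether a line was 1 clone or whether libraries with the same group name are separate cultures. The p-values therefore reflect the spread between libraries alone, and that spread may be technical.

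Proteins that enter the secretory pathway fold inside the ER, where the Hsp70-type chaperone BiP (Hspa5), lectin chaperones and disulfide isomerases act on them. When unfolded proteins accumulate, the membrane sensors IRE1 (Ern1), ATF6 (Atf6) and PERK (Eif2ak3) start the unfolded protein response, in which spliced XBP1 and cleaved ATF6 raise the transcription of chaperone and degradation genes, and PERK lowers translation while ATF4 is made. OPCs that become oligodendrocytes make large amounts of membrane protein through this pathway. Vhl encodes the part of a ubiquitin ligase that binds hypoxia-inducible factors when oxygen is present, and Ero1l, the oxidase that recharges protein disulfide isomerase, is a known target of those factors.

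The ER stress response element (ERSE) is the promoter sequence through which ATF6 and XBP1 act on chaperone genes. It was searched on both strands as CCAAT, then 9 of any base, then CCACG, in RefSeq windows of the GRCm38.p6 build that run from 250 bases before to 50 after each annotated start. Of the 32 genes, 28 had a window (Hyou1, Manf, Atf6 and Derl1 had none). The element was found in 10 of the 28 genes (35.7%), against 37 of 26994 genes with a window (0.137%), which include the 10. The shares are not a test, since the set was chosen by name and holds chaperone genes on which this element acts. The 10 genes were Hspa5, Hsp90b1, Creld2, Dnajc3, Calr, Canx, Pdia6, Ero1lb, Syvn1 and Derl3. Their 11 elements, 6 on the gene's strand and 5 on the opposite one, had their middle between 35 and 203 bases before the start site. The second form, ATTGG, 1 base and CCACG, was found in Dnajb11 and Herpud1 (7.14%, against 0.0445% of all genes). The ATF6 sequence TGACGTGG was in no window of these genes and in 0.715% of all genes with a window. A match describes the letters only, and no binding was measured here.

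The 2 elements of Hsp90b1, which passed in neither comparison of Vhl with control cells in the drug experiment, are not printed. Neither are the second-form elements of Dnajb11 and Herpud1, which also passed in neither. The elements shown are those of 7 genes that were lower in Vhl cells in both arms of the drug experiment. Those of Derl3 and Ero1lb, which were not, are also shown. Each is printed on the gene's strand with 10 bases on either side, and capitals mark the 2 fixed ends of the element, which read CGTGG first and ATTGG last where it lies on the opposite strand.
Hspa5, chr2:34772015-34772053, plus strand: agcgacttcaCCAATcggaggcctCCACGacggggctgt
Creld2, chr15:88819510-88819548, plus strand: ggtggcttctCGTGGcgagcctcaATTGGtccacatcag
Dnajc3, chr14:118937817-118937855, plus strand: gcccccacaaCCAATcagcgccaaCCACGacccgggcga
Calr, chr8:84847065-84847103, minus strand: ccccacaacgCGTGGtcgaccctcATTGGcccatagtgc
Canx, chr11:50325790-50325828, minus strand: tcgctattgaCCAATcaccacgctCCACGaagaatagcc
Pdia6, chr12:17266481-17266519, plus strand: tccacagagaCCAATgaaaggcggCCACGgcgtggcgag
Syvn1, chr19:6046522-6046560, plus strand: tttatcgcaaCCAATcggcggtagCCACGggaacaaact
Derl3, chr10:75893232-75893270, plus strand: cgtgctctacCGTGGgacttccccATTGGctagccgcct
Ero1lb, chr13:12565672-12565710, plus strand: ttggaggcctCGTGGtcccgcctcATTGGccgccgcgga

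The Ero1l window is shown whole because this gene had the largest change in both comparisons of Vhl with control cells in the drug experiment. It held no ERSE. Capitals mark 2 matches of GCGTG and 1 of ACGTG, the latter on the opposite strand, where it reads CACGT. These are the core letters of the hypoxia response element, and they are common. Among genes with a window, ACGTG was found in 42.9% of this set and 21.8% of all genes, and GCGTG in 67.9% and 35.1%.
Ero1l (RefSeq symbol Ero1a), chr14:45318523-45318822, minus strand: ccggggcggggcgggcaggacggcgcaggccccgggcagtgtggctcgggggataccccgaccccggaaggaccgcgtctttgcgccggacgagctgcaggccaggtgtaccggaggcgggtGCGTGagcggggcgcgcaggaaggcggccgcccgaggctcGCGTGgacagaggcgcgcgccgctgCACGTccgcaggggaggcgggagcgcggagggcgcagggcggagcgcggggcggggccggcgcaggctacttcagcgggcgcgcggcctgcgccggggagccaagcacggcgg

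**Figure D1:**
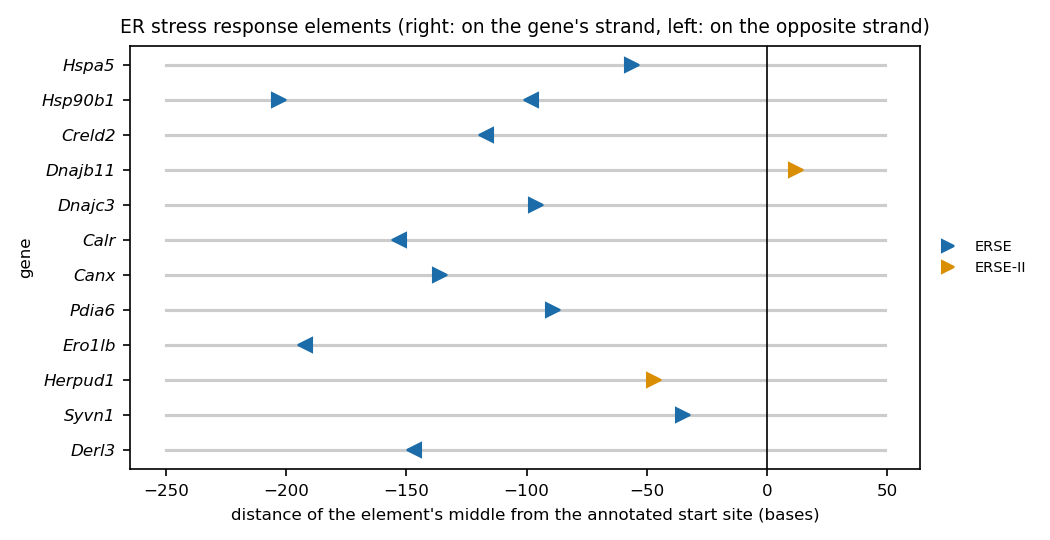
Position of each element in the 12 windows that held one; the x axis is the distance of the element's middle from the annotated start site in bases, the grey line is the window, blue marks ERSE and orange the second form, and the triangle points right where the element lies on the gene's strand. Hsp90b1 holds 2 elements, and the Dnajb11 element lies 12 bases after the start site, while all others lie before it.

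Library totals lay between 12391077 and 21160250 estimated counts. The untreated and drug tables were normalized and fitted separately, so levels are compared within a table only. In the drug experiment, libraries of a group differed little (a chi-square per gene of 4.996 to 6.64 between pairs), whereas the untreated replicates A stood apart, with a chi-square per gene of 59.9 to 77.9 between control A and the other controls and 176 to 204 between Vhl A and the other Vhl libraries. Vhl B and C differed by 65. Vhl mRNA was lower in every Vhl library than in every control library of the same treatment, at 73.9 to 89.9 CPM (estimated counts scaled to a common library total) against 117 to 125 in the untreated table, 89.8 to 93.8 against 102 to 109 in DMSO, and 91.8 to 104 against 136 to 139 in AZD8330. Dusp6, a target of MEK signalling, was at 405 to 423 CPM in DMSO controls and 20.5 to 21.2 CPM in AZD8330 controls. The 7 OPC markers summed to 7915 to 12934 CPM in each library, with Olig2 at 814 to 1511 CPM. Sox10, on the same list, ran from 15.3 to 526 CPM over the untreated libraries, with its highest value in control A and 87.5 to 87.8 CPM in the other controls. In the drug table Sox10 was lower in Vhl cells in DMSO (log2 change -1.53) and in AZD8330 (-1.65). It was the 1 OPC marker of the 7 that fell, while 5 rose in each of these comparisons. The 5 microglia markers summed to at most 1.84 CPM, 4 endothelial markers to at most 3.55 CPM, 5 mesenchymal markers to at most 18.6 CPM and 5 pluripotency markers to at most 23.7 CPM. In bulk RNA, fewer cells of a type and less RNA per cell cannot be told apart.

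A row may not hold all reads of its gene, which was not tested. For 19 of the 32 genes the deposited values were whole numbers, within 0.0015, in at least 9 of the 18 libraries. The other 13 (Hspa5, Hsp90b1, Hyou1, Manf, Dnajb11, P4hb, Pdia3, Ero1lb, Eif2ak3, Xbp1, Sel1l, Derl2 and Ssr3) had fractional values. Ero1l lay exactly at this limit, with whole values in 5 of 6 untreated and 4 of 12 drug libraries, so in the drug table it is mostly fractional although it is counted among the 19. Some of the fractional rows were very low for genes that secretory cells use: Hsp90b1, the Hsp90 of the ER, had 2.51 to 10.9 CPM over all 18 libraries, Pdia3, a glycoprotein disulfide isomerase, 0.146 to 1.99 CPM, and Xbp1 1.78 to 4.58 CPM. The row of P4hb, the founding protein disulfide isomerase, had 1.71 to 20.9 CPM in the untreated table and 0 to 0.928 CPM in the drug table. Levels of these 13 genes are therefore those of the rows and may be too low, and counts are also given for the 19 genes with whole values. With a filter of a mean of 1 CPM, 31 of the 32 genes were tested in the untreated table (not Eif2ak3) and 29 in the drug table (not P4hb, Pdia3 or Eif2ak3).

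Per kilobase of the longest coding transcript in GENCODE M21, Calr (calreticulin, a soluble lectin chaperone) had the highest row in DMSO control cells, at 801 ± 56.6 CPM per kilobase (SD, n = 3). Hspa5 followed at 341 ± 25, Canx (calnexin, the membrane lectin chaperone) at 290 ± 19.6, and the disulfide isomerases Pdia6 and Pdia4 at 272 ± 16.9 and 213 ± 14. Canx and Pdia6 did not differ beyond their SDs. Sec61b, a subunit of the translocation channel, had 180 ± 3.28 CPM per kilobase. The sensors were lower on this scale, with Atf6 at 11.5 ± 0.104 and Ern1 at 3.02 ± 0.0827, and Derl3 was the lowest whole-valued row at 0.909 ± 0.134.

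In DMSO, 5 of 6 folding chaperone genes, 2 of 2 lectin chaperone genes and 1 of 3 J-domain co-chaperone genes fell in Vhl cells, and Ero1l rose. Of the 29 genes tested, 16 fell, 2 rose and 11 did not pass (edgeR's quasi-likelihood test, adjusted p under 0.05 over all 13460 genes). Of all genes tested, 32.3% were called, 18.5% as lower and 13.8% as higher (1851 of 4343 calls were rises, and 2343 of 4137 with scaling by total counts, where 14 of the 29 genes fell and 2 rose). The median log2 change of the 29 genes was -0.26, against -0.03 over all genes. Of the 19 whole-valued genes, 13 fell and 2 rose, 1 of them Ero1l. The 2 groups did not overlap for 17 of the 29 genes, against 44.8% of all genes. The CPM of all 32 rows summed to 6760 to 7571 in DMSO controls and 5351 to 5980 in DMSO Vhl cells, although the latter sums include more Ero1l.

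Of the folding chaperones, 5 of 6 fell. Hspa5, the BiP gene (chr2:34771970-34777547), had 1343, 1257 and 1159 CPM in DMSO control libraries and 939, 871 and 791 CPM in DMSO Vhl libraries. Every Vhl library was below every control library, and the log2 change was -0.53 ± 0.08 (SE, adjusted p 0.000247, edgeR's quasi-likelihood test). Hyou1, a large Hsp70 relative that exchanges nucleotide on BiP (chr9:44379490-44392369), had 143, 157 and 143 CPM in the control libraries and 76, 79.6 and 80.3 CPM in the Vhl libraries. By its row, which is fractional like those of Hspa5 and Manf, this was the largest fall of the set, to 0.531 of the control level (log2 change -0.91 ± 0.13, adjusted p 0.000163). Among whole-valued genes the largest fall was that of Sdf2l1. Sdf2l1, a partner of the BiP cycle, had 90.1, 83.6 and 75.9 CPM in the control libraries and 52.8, 49.1 and 46.8 CPM in the Vhl libraries, also without overlap (log2 change -0.75 ± 0.07, adjusted p 2.88e-06). Creld2 (-0.57), which encodes a small disulfide isomerase-like protein, and Manf (-0.43), which encodes a secreted ER stress protein, fell as well. The Hsp90b1 row did not pass, at 8.19, 6.49 and 5.5 CPM in the control libraries and 7.01, 6.13 and 6.04 CPM in the Vhl libraries (-0.07 ± 0.25, adjusted p 0.863).

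Of the 3 J-domain co-chaperones, which stimulate the ATPase of BiP, Dnajc3 fell, from 220 to 242 CPM in controls to 155 to 167 CPM in Vhl cells (log2 change -0.55 ± 0.05). Dnajb9 and Dnajb11 did not pass, with log2 changes of 0.04 and 0.17. Both lectin chaperones fell. Calr had 1838, 1803 and 1608 CPM in the control libraries and 1358, 1231 and 1146 CPM in the Vhl libraries (-0.49 ± 0.06, adjusted p 6e-05), and Canx fell less, by 0.25 on the log2 scale. All 3 tested disulfide isomerases fell: Pdia6 (-0.65), Pdia4 (-0.60) and Pdia5 (-0.42).

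Ero1l and Ero1lb encode the 2 ER oxidases that pass disulfides to protein disulfide isomerase. Ero1l (chr14:45283087-45318771) had 60, 60 and 50.1 CPM in DMSO controls against 286, 298 and 296 CPM in DMSO Vhl cells. The groups were far apart, at 5.16 times the control level (log2 change 2.37 ± 0.06, adjusted p 2.07e-11, edgeR's quasi-likelihood test). Ero1lb, by its row, did not pass, at 7.78 to 10.2 CPM in the control libraries and 5.73 to 8.11 CPM in Vhl cells (-0.36 ± 0.18, adjusted p 0.152).

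None of the sensor and transcription factor genes passed. Ern1 had 20.3, 21.3 and 21.3 CPM in DMSO controls against 20.5, 20.7 and 20.8 CPM in DMSO Vhl cells, a log2 change of -0.02 ± 0.07. Atf6 had 83.3, 84.5 and 83.2 CPM against 76.9, 83 and 85.7 CPM (-0.03 ± 0.05), and Xbp1 had 4.19, 3.88 and 3.64 CPM against 2.79, 4.16 and 3.62 CPM (-0.15 ± 0.22). The adjusted p was 0.866, 0.67 and 0.67. These are mRNA levels, and neither splicing of Xbp1 nor cleavage of the ATF6 protein can be read from gene counts. The Eif2ak3 row was too low to test, at 1.02, 1.07 and 0.357 CPM in the control libraries and 0.796, 0.818 and 0.905 CPM in the Vhl libraries.

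Of the 7 genes of ER-associated degradation, which returns misfolded proteins to the proteasome, 3 fell and 1 rose. The falls were small: Syvn1, the ubiquitin ligase Hrd1, by 0.29, Edem1, a lectin that extracts glycoproteins, by 0.26, and Derl1, a membrane component, by 0.25 on the log2 scale. The Edem1 groups overlapped, and its call was lost without DMSO control B (adjusted p 0.107), DMSO Vhl B (0.0959) or DMSO Vhl C (0.0716) in edgeR's quasi-likelihood test. Derl3, the derlin whose level follows ER stress, had 1.33, 1.27 and 0.999 CPM in the control libraries and 2.95, 2.18 and 1.89 CPM in the Vhl libraries (0.95 ± 0.28, adjusted p 0.0215). This rests on few reads, as Derl3 had 14 to 62 counts per library in the drug table, and the call was lost without DMSO control C (adjusted p 0.0719) or DMSO Vhl A (0.0867). Herpud1, a scaffold of the degradation complex and a sensitive reporter of ER stress, had 35, 30.7 and 25.5 CPM in the control libraries and 31.5, 24.6 and 25 CPM in the Vhl libraries and did not pass (-0.17 ± 0.12, adjusted p 0.306). Of the 3 translocon genes, Sec61b (-0.35) and Ssr1 (-0.15), a subunit of the translocon-associated protein complex, fell, though Ssr1 lost its call without DMSO control B (adjusted p 0.0527).

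**Figure D2:**
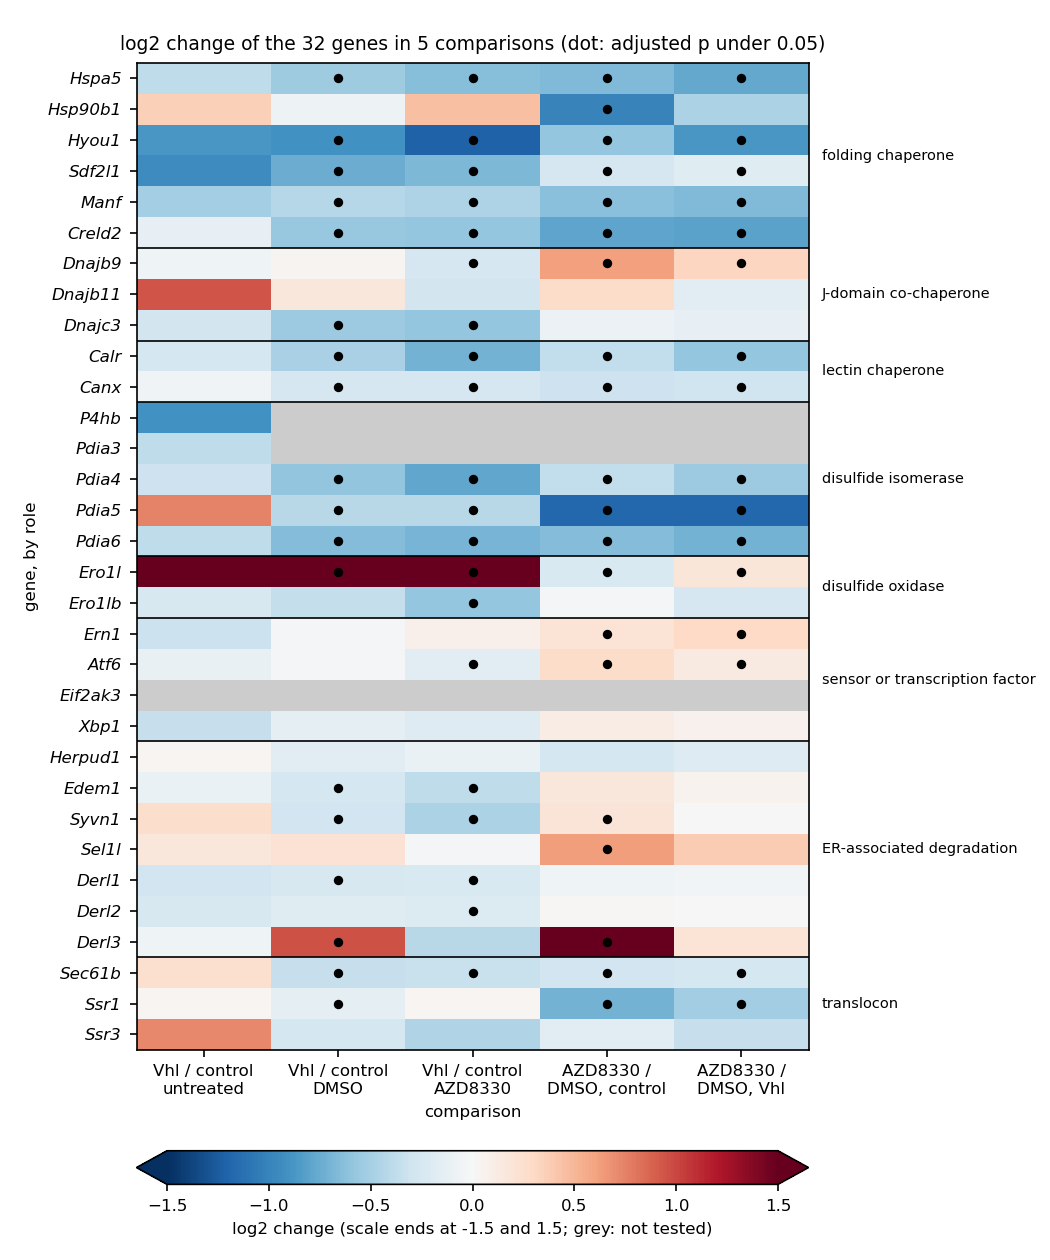
Log2 change of each of the 32 genes (y axis, grouped by role) in 5 comparisons (x axis); blue is lower, red is higher, the colour scale ends at -1.5 and 1.5, a dot marks an adjusted p under 0.05, and grey marks genes not tested. Folding chaperones, lectin chaperones and disulfide isomerases are mostly blue and dotted in the 4 comparisons of the drug experiment, while Ero1l is dark red in each comparison of Vhl with control cells and carries no dot in the untreated one.

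In AZD8330, where the same comparison was made in other libraries, 19 of the 29 genes were lower in Vhl cells, 1 was higher and 9 did not pass. Of all genes, 30% were called in this comparison, 14% as lower and 16% as higher. The median log2 change was -0.38, against 0.01 over all genes, and 14 of the 19 whole-valued genes fell. The groups did not overlap for 21 of the 29 genes, against 43% of all genes. Of the 16 genes that fell in DMSO, 15 fell here too, which is 93.8% of the DMSO list and 78.9% of the AZD8330 list. Over all genes, 45.1% of those that fell in DMSO fell in AZD8330, and 8.35% of tested genes fell in both, while 8.3% rose in both, as Ero1l did. Ssr1 was the exception, with a log2 change of 0.03 in AZD8330. Derl2, Atf6, Dnajb9 and Ero1lb fell in AZD8330 and did not pass in DMSO. Derl2 lost this call without any 1 of 5 of the 6 libraries (all but Vhl A; adjusted p 0.0536 to 0.107, edgeR's quasi-likelihood test), and Ero1lb without any 1 of 4 (control A or B, Vhl B or C; 0.0574 to 0.0972).

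The fractional row of Hyou1 again had the largest fall (log2 change -1.21 ± 0.14, adjusted p 2.19e-05, edgeR's quasi-likelihood test). It had 107, 109 and 81.6 CPM in AZD8330 control libraries and 45, 32.7 and 51.3 CPM in AZD8330 Vhl libraries. Pdia4, a disulfide isomerase with several thioredoxin-like domains, had 400, 405 and 383 CPM in the control libraries and 231, 241 and 222 CPM in the Vhl libraries (-0.78 ± 0.06, adjusted p 9.94e-07). Calr had 1333, 1405 and 1322 CPM in the control libraries and 816, 869 and 809 CPM in the Vhl libraries (-0.70 ± 0.06, adjusted p 2.42e-06). None of these groups overlapped. Hspa5 had 748, 865 and 769 CPM in the control libraries and 462, 551 and 519 CPM in the Vhl libraries, again without overlap (-0.64 ± 0.08, adjusted p 6.03e-05). Ero1l was the gene that rose, with 48.7, 48.3 and 48.6 CPM in the control libraries and 320, 329 and 350 CPM in the Vhl libraries, without overlap (2.78 ± 0.06, adjusted p 3.25e-12).

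Among the sensors, Atf6 was slightly lower in AZD8330 Vhl cells, at 90.3, 92.3 and 87.7 CPM against 101, 104 and 97.5 CPM in AZD8330 controls (-0.16 ± 0.05, adjusted p 0.0155, and 0.057 without Vhl C). Ern1, with 25.2, 23.4 and 23.7 CPM in the control libraries and 25.7, 25.9 and 24.5 CPM in the Vhl libraries, did not pass (0.07 ± 0.07, adjusted p 0.478). The Xbp1 row had 4.06, 4.11 and 4.52 CPM in the control libraries and 3.1, 3.47 and 4.51 CPM in the Vhl libraries and did not pass (-0.19 ± 0.22, adjusted p 0.564). Neither did Herpud1, at 24.7, 26.7 and 24.7 CPM against 23.2, 22.8 and 24.7 CPM (-0.11 ± 0.12, adjusted p 0.571), nor Hsp90b1, at 4.37, 3.2 and 2.51 CPM against 3.93, 3.73 and 6.19 CPM (0.45 ± 0.26, adjusted p 0.236). The Eif2ak3 row had 1.33, 2.28 and 0.287 CPM against 0.552, 0.785 and 1.02 CPM and was not tested.

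Of the 10 genes with an ERSE in the window, 7 fell, 1 rose (Derl3) and 2 did not pass in DMSO, with a median log2 change of -0.42. In AZD8330, 8 fell and 2 did not pass, with a median of -0.58. Of the 18 genes with a window and no ERSE, 15 were tested. Among these, 6 fell and 1 rose in DMSO (median -0.17), and 7 fell and 1 rose in AZD8330 (median -0.25). Dnajb11 and Herpud1, which hold the second form of the element, are counted in this set and passed in neither comparison. If they were counted with the ERSE genes, the shares that fell would lie closer together. Whether the difference between the 2 sets exceeds chance was not tested. Of the other 24 genes with an ERSE and a row in the tables, 8 were expressed enough to be tested. Of these, 1 fell (Hnrnpa3) and 2 rose (Spats2l and Adcy3) in each of the DMSO and AZD8330 comparisons of Vhl with control cells.

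**Figure D3:**
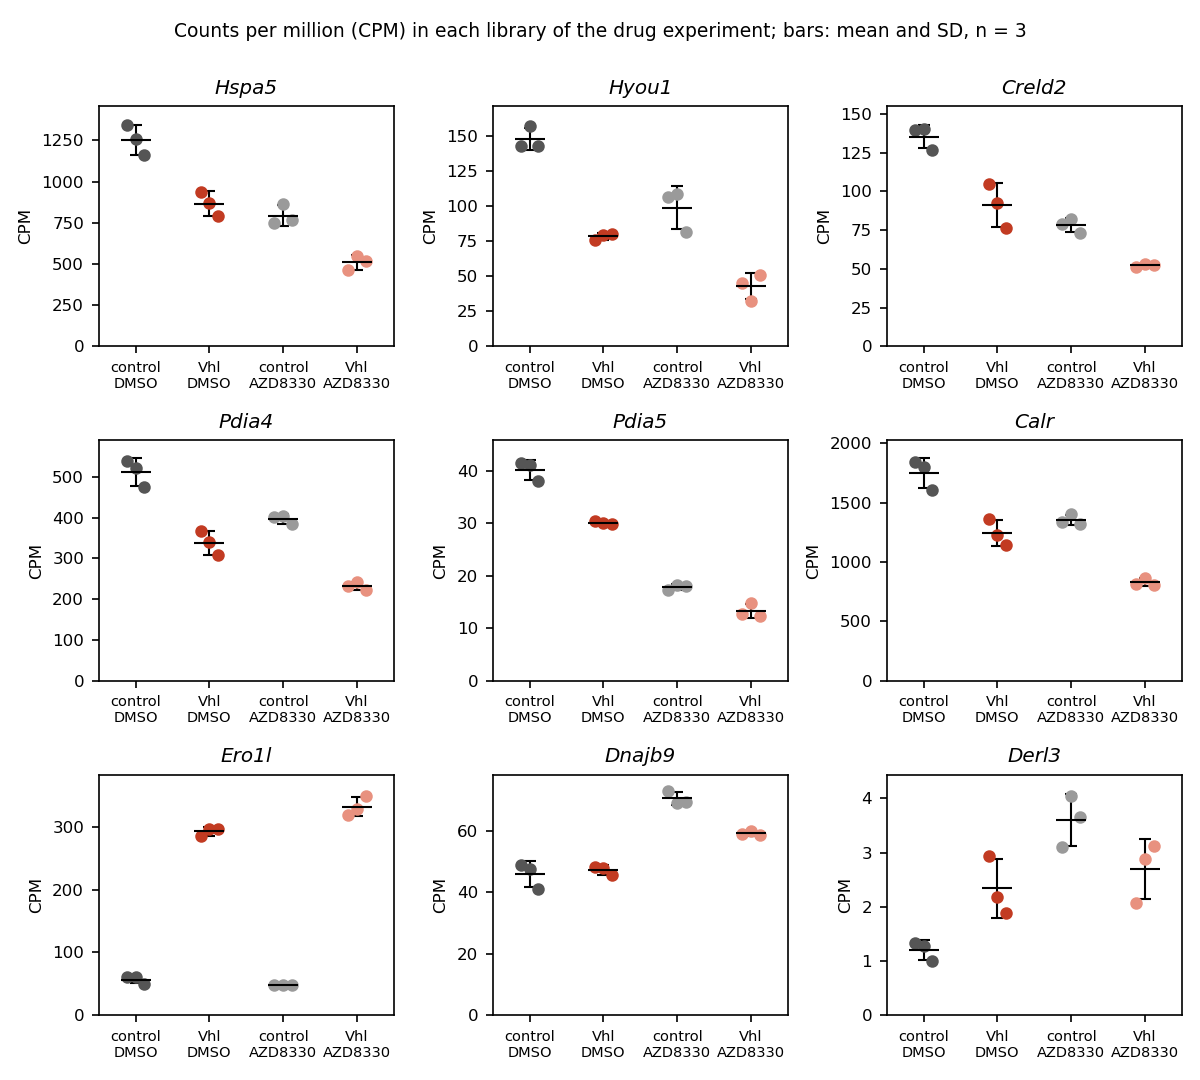
CPM (y axis, starting at 0) of 9 genes in the 4 groups of the drug experiment (x axis); each point is a library, and bars give the mean and SD of 3 libraries. Hspa5, Hyou1, Creld2, Pdia4, Pdia5 and Calr are highest in DMSO controls and lowest in AZD8330 Vhl cells, Ero1l separates Vhl from control cells, and Dnajb9 and Derl3 are highest in AZD8330 controls.

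AZD8330 in control cells lowered 6 of 6 folding chaperone genes and 2 of 2 lectin chaperone genes, while 1 of 3 J-domain co-chaperone genes rose. Rises were also called for 2 of 3 tested sensor and transcription factor genes and 3 of 7 degradation genes. Of the 29 tested genes, 14 fell, 6 rose and 9 did not pass. Of all genes, 60.8% were called, 31.7% as lower and 29.1% as higher, so the share of these genes called, 20 of 29, lay near that of all genes. The share of these genes that rose, 6 of 29, was below 29.1%, and the share that fell, 14 of 29, was above 31.7%. The median log2 change was -0.23, against -0.01 over all genes. Of the 19 whole-valued genes, 10 fell and 5 rose. The groups did not overlap for 21 of the 29 genes, against 66.4% of all genes.

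All 6 folding chaperones fell in AZD8330 controls. Hspa5 fell from the DMSO values given above to 748, 865 and 769 CPM, without overlap (log2 change -0.66 ± 0.08, adjusted p 1.1e-05, edgeR's quasi-likelihood test). Creld2 had 140, 140 and 127 CPM in DMSO and 79.2, 82.4 and 73.4 CPM in AZD8330 (-0.79 ± 0.09, adjusted p 5.9e-06). The Hsp90b1 row had 8.19, 6.49 and 5.5 CPM in DMSO and 4.37, 3.2 and 2.51 CPM in AZD8330 (-0.997 ± 0.26, adjusted p 0.00495). The largest fall was that of Pdia5, a disulfide isomerase linked to ATF6 activation (chr16:35397312-35490873). Its 41.4, 41.1 and 38 CPM in DMSO became 17.2, 18.3 and 18 CPM in AZD8330, or 0.444 of the DMSO level (-1.17 ± 0.08, adjusted p 3.32e-08). Pdia6 (-0.66), Pdia4 (-0.37), Calr (-0.37) and Canx (-0.31) fell with it, as did Ssr1 (-0.71) and Sec61b (-0.28) of the translocon. Ero1l fell slightly, to 48.7, 48.3 and 48.6 CPM (-0.23 ± 0.06, adjusted p 0.0085, and 0.052 in a fit of these 2 groups alone).

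The 6 genes that rose were Dnajb9, Derl3, Ern1, Atf6, Syvn1 and Sel1l. Dnajb9, a co-chaperone that is a target of spliced XBP1 and restrains IRE1, had 48.9, 47.6 and 41 CPM in DMSO controls and 72.9, 69.1 and 69.4 CPM in AZD8330 controls (0.62 ± 0.06, adjusted p 1.81e-06, edgeR's quasi-likelihood test). Derl3 had 1.33, 1.27 and 0.999 CPM in DMSO and 3.1, 4.04 and 3.66 CPM in AZD8330, or 2.98 times the DMSO level (1.58 ± 0.28, adjusted p 0.000296). Neither pair of groups overlapped. The sensors Ern1, at 25.2, 23.4 and 23.7 CPM in AZD8330, and Atf6, at 101, 104 and 97.5 CPM, rose by 0.20 ± 0.07 and 0.27 ± 0.05 on the log2 scale. Ern1 lost its call without DMSO A (adjusted p 0.0806) or AZD8330 A (0.0835), and with no filter on low counts (0.334). Syvn1 (0.20) and its adaptor Sel1l (0.63), the latter from a fractional row, rose too. Syvn1 lost its call without A or C of either group (adjusted p 0.0508 to 0.0798), and Sel1l without DMSO C (0.0517) or AZD8330 A (0.0554). The Xbp1 row did not pass (0.11 ± 0.22), nor did Herpud1 (-0.26 ± 0.12, adjusted p 0.0732).

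Markers of other neural cell types moved with AZD8330. In control cells, 5 of 5 astrocyte markers rose, and their sum went from 656 to 721 CPM in DMSO to 1614 to 1687 CPM in AZD8330, with Gfap at 4.12 and 131 CPM on average. All 5 tested neuron markers rose (sum 166 to 174 against 376 to 388 CPM), with Syt1 at 0 in DMSO. Of 4 tested markers of maturing oligodendrocytes 3 rose (sum 141 to 146 against 438 to 472 CPM), most of it Cnp, and Mog was at 0 in both groups. The OPC sum was between 7915 and 8227 CPM in control cells. In Vhl cells the sums in DMSO and AZD8330 were 718 to 761 and 1251 to 1280 CPM for astrocytes, 360 to 370 and 563 to 591 CPM for neurons, and 163 to 178 and 370 to 401 CPM for maturing oligodendrocytes. The neuron sum was thus also higher in Vhl than in control cells within DMSO. Of the 5 tested neuron markers, Elavl3 and Dcx passed as higher there, while Snap25, Tubb3 and Rbfox3 did not pass. Within AZD8330, 3 were higher in Vhl cells and 1, Rbfox3, was lower. The part of these shifts in the results above and below was not tested.

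In Vhl cells, AZD8330 lowered 12 of the 29 genes and raised 4, while 13 did not pass. Of all genes, 51.4% were called, 25.6% as lower and 25.8% as higher, again close to the share of these genes called, 16 of 29. The median log2 change was -0.20, against 0.03 over all genes, and 9 of the 19 whole-valued genes fell while 4 rose. The groups did not overlap for 18 of the 29 genes, against 58.4% of all genes. All 12 genes that fell had also fallen in control cells, where 14 fell (85.7% of that list). Over all genes, 73.5% of those that fell in control cells fell in Vhl cells, and 91.1% of those that fell in Vhl cells fell in control cells. Of tested genes, 23.3% fell in both. Dnajb9, Ern1 and Atf6 rose in both kinds of cell, as did 21.8% of tested genes. Ero1l fell in control cells and rose in Vhl cells. The fall did not pass in a fit of the 2 control-cell groups alone (adjusted p 0.052, edgeR's quasi-likelihood test). Without AZD8330 Vhl C the Ero1l rise did not pass (adjusted p 0.059, edgeR's quasi-likelihood test). Nor did the rise of Atf6 pass without DMSO Vhl A, AZD8330 Vhl A or AZD8330 Vhl B (0.0804 to 0.244), nor the fall of Sdf2l1 without DMSO Vhl A or B or AZD8330 Vhl B or C (0.079 to 0.165). With no filter on low counts, Ern1 (0.0607), Atf6 (0.115) and Sdf2l1 (0.0504) lost their calls in Vhl cells.

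Pdia5 had 30.5, 30 and 29.8 CPM in DMSO Vhl libraries and 12.8, 14.8 and 12.4 CPM in AZD8330 Vhl libraries. The log2 change was -1.18 ± 0.08, beside -1.17 ± 0.08 in control cells. Hyou1 went from 76, 79.6 and 80.3 CPM to 45, 32.7 and 51.3 CPM (log2 change -0.87 ± 0.14, adjusted p 0.000165, edgeR's quasi-likelihood test). Creld2 went from 105, 92.5 and 76.3 CPM to 51.4, 53.1 and 52.8 CPM (-0.80 ± 0.09, adjusted p 1.14e-05), and Hspa5 from 939, 871 and 791 CPM to 462, 551 and 519 CPM (-0.76 ± 0.08, adjusted p 4.39e-06). The 2 groups did not overlap for any of these 4 genes. Ern1 rose from 20.5 to 20.8 CPM in DMSO to 24.5 to 25.9 CPM (0.29 ± 0.07), and Dnajb9 from 45.4 to 48.2 CPM to 58.5 to 59.9 CPM (0.32 ± 0.06). Ero1l rose from 286, 298 and 296 CPM to 320, 329 and 350 CPM (0.18 ± 0.05, adjusted p 0.0129). None of the 7 degradation genes passed in Vhl cells. Xbp1 (0.07 ± 0.22), Herpud1 (-0.20 ± 0.12) and Hsp90b1 (-0.47 ± 0.26) did not pass either.

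The difference between the drug effects of the 2 kinds of cell passed for 3 of the 29 genes, a share near that of all genes, 12.8% (7.81% with a positive and 4.96% with a negative difference; 1051 of 1718 calls were positive, and 683 of 1553 with scaling by total counts, where 1 of the 29 genes was positive and 3 were negative). Ero1l responded more positively in Vhl cells, by 0.41 ± 0.08 on the log2 scale (adjusted p 0.00719, edgeR's quasi-likelihood test). Dnajb9 rose less in Vhl cells, with a difference of -0.29 ± 0.09 (adjusted p 0.0485), and the change of Derl3 was smaller there, with a difference of -1.37 ± 0.39 (adjusted p 0.0368). The other 26 genes did not pass, which does not show equal effects. For Hspa5 the difference was -0.10 ± 0.11, for Calr -0.21 ± 0.09 (adjusted p 0.146) and for Ssr1 0.18 ± 0.06 (adjusted p 0.053). Calr passed under 3 of the alternative settings, and Ero1l was the 1 gene of the 3 that kept its call whichever of the 12 libraries was left out. Dnajb9 lost its call in 9 of these 12 fits (all but those without DMSO control A, AZD8330 control B or AZD8330 Vhl A; adjusted p 0.0554 to 0.108) and Derl3 in 9 (all but those without AZD8330 control A, DMSO Vhl C or AZD8330 Vhl C; 0.0556 to 0.0849). The summed CPM of the 32 rows was 5468 to 5721 in AZD8330 controls and 4158 to 4368 in AZD8330 Vhl cells, the lowest of the 4 groups.

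**Figure D4:**
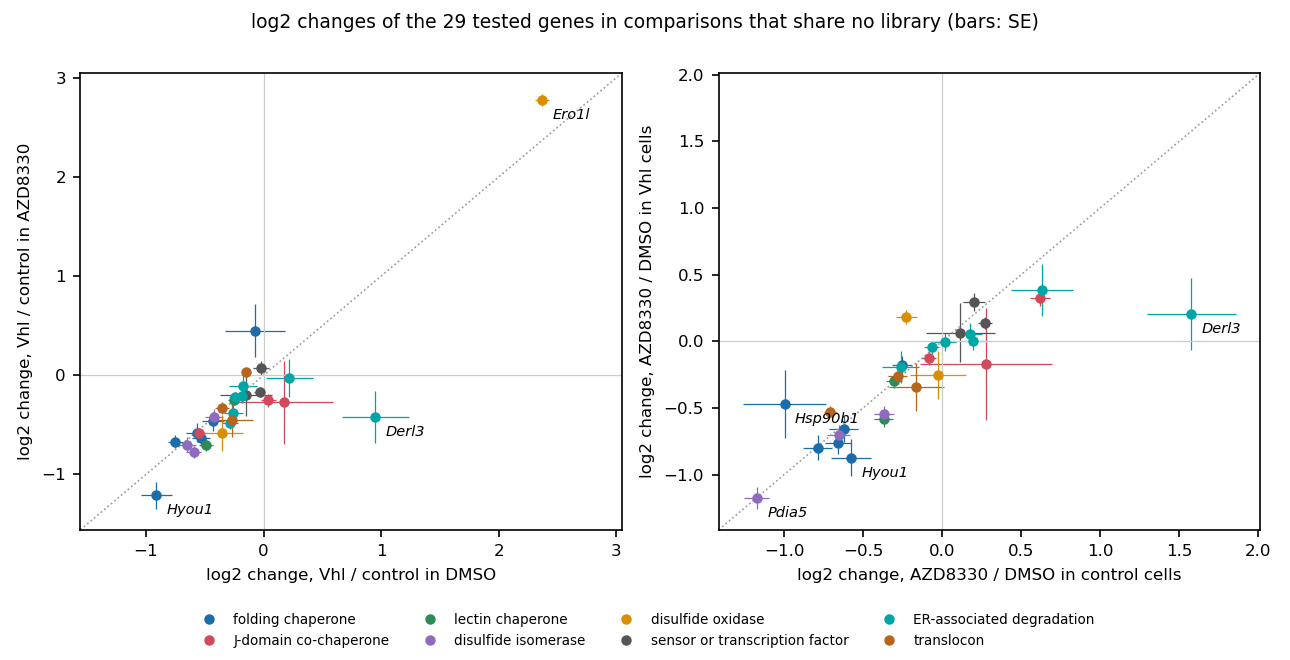
Log2 changes of the 29 tested genes with SE bars, coloured by role; left, Vhl against control cells in DMSO (x) and in AZD8330 (y); right, AZD8330 against DMSO in control cells (x) and in Vhl cells (y); the dotted line marks equal changes. Most points lie below 0 on both axes near the dotted line, Ero1l lies at 2.37 and 2.78 on the left, and Derl3 lies farthest from the line on the right, at 1.58 and 0.20.

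In the untreated experiment, none of the 31 tested genes passed edgeR's quasi-likelihood test, 4 had an unadjusted p under 0.05, and DESeq2 called 1 (Ero1l). Of all genes 0.0147% were called, and 9.34% had an unadjusted p under 0.05. The median log2 change was -0.12, against 0.05 over all genes. The 2 groups did not overlap for 5 of the 31 genes, against 15.8% of all genes. The spread was far larger here than in the drug experiment, with a common dispersion of 0.144 against 0.0161.

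Ero1l had 39, 38.4 and 37.4 CPM in the untreated control libraries and 95.7, 376 and 360 CPM in untreated Vhl libraries A, B and C. All 3 Vhl libraries were above the controls, but Vhl A was well below B and C (log2 change 2.85 ± 0.50, adjusted p 0.137, edgeR's quasi-likelihood test). Hspa5 had 681, 603 and 617 CPM in the control libraries and 814, 331 and 311 CPM in Vhl libraries, so that Vhl A was above and Vhl B and C were below every control (-0.38 ± 0.38, adjusted p 0.825). Vegfa, a target of hypoxia-inducible factors, was also lower in Vhl A than in Vhl B and C, with 38.7, 407 and 642 CPM in the Vhl libraries, all above the 6.12 to 8.27 CPM of the controls. Over the 31 genes, the median log2 ratio to the control mean was 0.13 in Vhl A, -0.28 in Vhl B and -0.23 in Vhl C.

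Without Vhl A, 5 of the genes passed: Ero1l rose (3.26, adjusted p 0.000508), and Hspa5 (-0.98), Sdf2l1 (-1.46), Manf (-1.18) and P4hb (-3.11) fell (edgeR's quasi-likelihood test). Over all genes, 439 passed without Vhl A, against 2 with it. Without both libraries A, 3 genes passed, which were Ero1l, Hspa5 and P4hb. Over all genes, more passed in that fit than without Vhl A alone, as given further below. The P4hb row had 11.2, 16 and 19 CPM in the control libraries and 20.9, 1.71 and 1.84 CPM in Vhl libraries, and its values in the drug table were near 0 in all groups, so this row is not read as the level of the gene.

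None of the following genes passed. Hyou1 had 157, 110 and 118 CPM in the untreated control libraries and 60.7, 92.1 and 57.6 CPM in Vhl cells, without overlap (-0.87 ± 0.25, adjusted p 0.336). Pdia5 was higher in every Vhl library, at 16.9, 12.1 and 13.5 CPM against 9.3, 7.94 and 8.07 CPM (0.75 ± 0.24, adjusted p 0.413), a sign opposite to that in DMSO. The difference between the 2 experiments was not tested, since they stand in separate tables. Among the sensors, the groups overlapped. Ern1 had 25.8, 28.4 and 28.8 CPM in untreated controls and 18.8, 21 and 26.6 CPM in untreated Vhl libraries (-0.32 ± 0.21). Atf6 had 161, 103 and 102 CPM in controls, with control A the highest of the 6 libraries, and 87.4, 114 and 137 CPM in Vhl libraries (-0.11 ± 0.26). Xbp1, Hsp90b1 and Herpud1 overlapped between the groups as well. Xbp1 had 2.22, 4.58 and 3.51 CPM in controls against 3.14, 3.17 and 1.78 CPM. Hsp90b1 had 5.08, 8.77 and 8.13 CPM against 10.9, 8.05 and 9.32 CPM. Herpud1 had 25, 21.8 and 22.4 CPM against 28.2, 17.1 and 25.2 CPM, so that its Vhl libraries held both the highest and the lowest value. The Eif2ak3 row had 0.143, 0.276 and 0.26 CPM against 0.925, 1.14 and 0.0634 CPM.

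**Figure D5:**
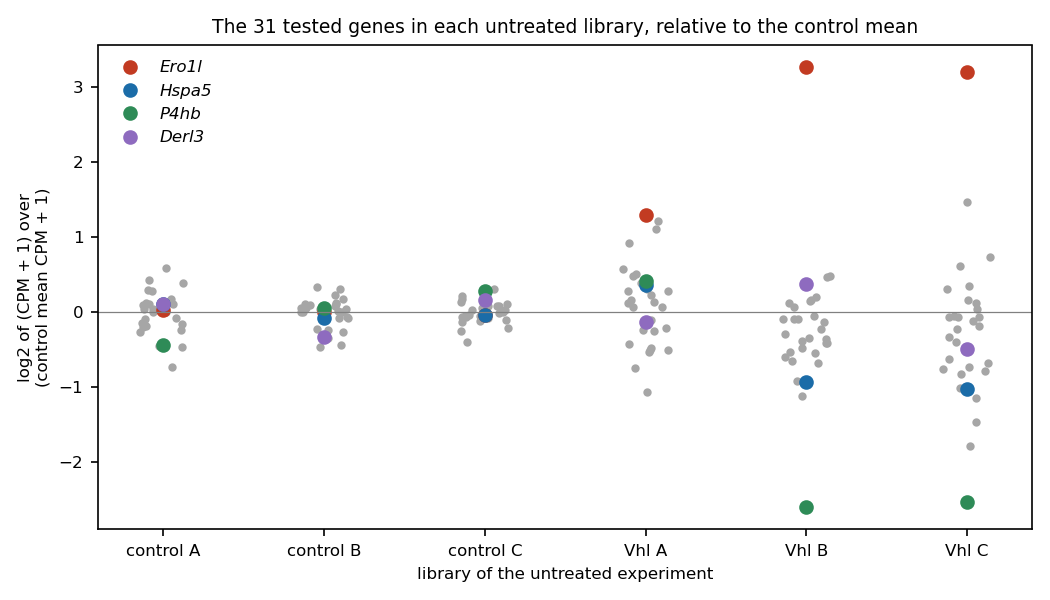
The 31 tested genes in each untreated library (x axis) as log2 of CPM + 1 relative to the mean of the 3 controls (y axis); each point is a gene, with Ero1l, Hspa5, P4hb and Derl3 in colour and the other genes in grey. Hspa5 and P4hb lie above 0 in Vhl A and far below it in Vhl B and C, and Ero1l is lower in Vhl A than in Vhl B and C.

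Further genes of the same processes were taken from 4 lists chosen for this work. In DMSO, Vhl cells had 0 rises and 12 falls among 29 tested genes of folding and glycoprotein processing, 2 and 4 among 21 of ER-associated degradation, 2 and 15 among 29 of translocation, signal peptidase and oligosaccharyl transfer, and 1 and 5 among 19 of signalling. The median log2 changes were -0.18, -0.11, -0.18 and -0.07, against -0.03 over all genes. The largest falls were those of Tram2 (-0.76), a protein of the translocation channel, Uggt1 (-0.64), the glucosyltransferase that senses misfolded glycoproteins, and Spcs3 (-0.59), a signal peptidase subunit. The rises were led by Stc2 (1.69), a secreted glycoprotein, and Tusc3 (0.44), an oligosaccharyltransferase subunit, followed by Rnf5 (0.20), a ubiquitin ligase of the ER membrane. These counts stand beside 13.8% of all genes higher and 18.5% lower. In AZD8330 the counts were 2 and 10, 0 and 5, 3 and 12, and 2 and 4, beside 16% of all genes higher and 14% lower. The medians there were -0.08, -0.06, -0.10 and -0.01, against 0.01 over all genes, and the signalling count lay near the share of all genes. Stc2 (2.89), Tusc3 (0.81) and Mogs (0.49), the first glucosidase of glycan trimming, were higher in Vhl cells, and Creb3l2 (-0.69), a membrane-bound transcription factor related to ATF6, Spcs3 (-0.54) and Qsox1 (-0.51), a sulfhydryl oxidase, were lower. No gene of the 4 lists passed in the untreated experiment.

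AZD8330 in control cells gave 5 rises and 17 falls in folding and glycoprotein processing, 4 and 3 in degradation, 2 and 19 in translocation and 2 and 14 in signalling, beside 29.1% of all genes higher and 31.7% lower. The medians were -0.26, -0.03, -0.31 and -0.56, against -0.01 over all genes. In Vhl cells it gave 5 and 14, 4 and 3, 3 and 17, and 1 and 12, beside 25.8% higher and 25.6% lower, with medians of -0.13, 0.01, -0.21 and -0.35 against 0.03. In degradation 7 of 21 genes were called in either kind of cell, below the 60.8% and 51.4% of all genes called. Os9, a lectin that delivers glycoproteins to the degradation complex, had 169, 176 and 173 CPM in DMSO controls and 355, 350 and 356 CPM in AZD8330 controls (log2 change 1.03 ± 0.03, adjusted p 2.86e-11, edgeR's quasi-likelihood test). It rose less in Vhl cells (0.71, difference -0.32 ± 0.05, adjusted p 0.000797). Edem2, an ER mannosidase-like protein, rose by 0.53 in control cells and 0.54 in Vhl cells. Fkbp11, a prolyl isomerase of secretory cells, had 14.5, 18.5 and 16.4 CPM in DMSO controls and 3.99, 3.26 and 4.59 CPM in AZD8330 controls (-2.06), and it fell by 1.45 in Vhl cells. Mogs fell in both kinds of cell, by 1.46 in control and 0.76 in Vhl cells, with a difference of 0.70 between the drug effects. Stc2 fell in control cells (-1.29) and did not pass in Vhl cells (-0.09), with a difference of 1.20. Creb3l2 and its relative Creb3l1 also fell in both, by 1.08 and 1.16 in control cells and by 1.33 and 1.06 in Vhl cells. Bbc3, a cell death gene, rose in both (1.09 and 1.33) and Tmx4, a membrane-bound thioredoxin, in Vhl cells (1.62), although the difference from control cells did not pass for Tmx4 (1.09, adjusted p 0.247, edgeR's quasi-likelihood test). Both were low, at 1.16 and 1.49 CPM for Bbc3 in DMSO control and DMSO Vhl cells and 0.525 CPM for Tmx4 in DMSO Vhl cells.

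Of the genes linked to the PERK branch, the mRNA of Atf4, its main transcription factor, and of the targets Ddit3 (CHOP) and Trib3 was read. PERK acts on translation, so these mRNA levels do not measure the activity of the branch. Atf4 had 282, 277 and 271 CPM in DMSO controls against 269, 267 and 254.9 CPM in DMSO Vhl cells, and did not pass (-0.07 ± 0.04, adjusted p 0.248, edgeR's quasi-likelihood test). With AZD8330 it fell to 179, 194 and 192 CPM in control cells (-0.56 ± 0.04) and to 203, 212 and 225 CPM in Vhl cells (-0.31 ± 0.04). The fall was smaller in Vhl cells, by 0.25 ± 0.06 (adjusted p 0.0178). Within AZD8330, Atf4 was thus higher in Vhl than in control cells (0.18 ± 0.04, adjusted p 0.00707). Ddit3, at 1.36 to 4.3 CPM in the drug table, fell with AZD8330 in Vhl cells (-0.98 ± 0.33, adjusted p 0.026), and Trib3, at 3.36 to 7.97 CPM, fell with it in control cells (-0.59 ± 0.23, adjusted p 0.0454). Neither Ddit3 nor Trib3 passed in a comparison of Vhl with control cells. Both had few reads.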

How the data were processed

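RNA was measured in 18 libraries of 6 groups. Per the submitters' processing notes, the authors used Salmon 0.14.1 and the mouse build mm10; annotation and library kit were not given in the sources used here. Although the authors' file names say TPM, the deposited values are expected counts (estimated counts), since column totals differ between libraries; they were rounded. The 2 tables were fitted separately with edgeR 4.0.16 (R 4.3.3): TMM scaling, a filter of 1 CPM on the mean, quasi-likelihood test, Benjamini-Hochberg adjustment over all tested genes, threshold 0.05. The 4 groups of the drug experiment shared 1 fit. CPM are counts relative to the TMM-scaled total. The call procedure was tested on simulated data. limma 3.58.1 and DESeq2 1.42.0 gave alternatives. Figures used matplotlib. Positions are from GENCODE M21 (GRCm38) and promoter windows from RefSeq, 1-based.

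The genes and lists were chosen with earlier results of these data known. Values in every library are given for Ern1, Atf6, Eif2ak3, Xbp1, Hspa5, Hsp90b1, Ero1l and Herpud1 and, per comparison, for the 4 called genes with the largest change; of the lists, up to 3 genes per direction, and Atf4, Ddit3 and Trib3. The authors' 2 mean columns entered no comparison. No libraries had identical values. Protein sequences were not used here.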

Additional observations from a re-analysis of the deposited data

Results flagged for a closer look

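The drug effect differed between Vhl and control cells for 3 of the genes by a test of the difference itself (edgeR's quasi-likelihood test, adjusted p under 0.05). The difference of log2 changes was 0.41 for Ero1l, -0.29 for Dnajb9 and -1.37 for Derl3. Dnajb9 lost its call without filtering low counts (adjusted p 0.119), as did Derl3 (adjusted p 0.16), which had 14 to 62 counts per library.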

How the results depend on the processing

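A gene's call was compared with its call under another setting 2767 times. Of these, 2655 kept their side of the threshold, 71 lost the call and 41 gained one. None reversed a called direction, and the direction of genes called in neither fit was not compared. Scaling, filters, DESeq2, limma, fits of 2 groups only and leaving out libraries were tried. In the untreated experiment, 0 genes were called, 1 with no filter on low counts, 1 by DESeq2, 3 without both libraries A, and 0 to 5 when 1 library was left out. Over all genes the untreated calls numbered 2, and 143, 355, 606 and 439 with no filter, by DESeq2, without both libraries A and without Vhl A, and 4 by limma. For the difference of drug effects, 3 genes were called, 1 with no filter, and 1 to 3 when 1 library was left out. The cause was not tested. In the 4 comparisons between groups of the drug experiment, 15 of 18, 16 of 20, 12 of 16 and 17 of 20 calls held in all settings (Vhl against control in DMSO, AZD8330 in control cells, AZD8330 in Vhl cells, Vhl against control in AZD8330). The fits with the replicate letter as a replicate block called 0, 19, 20, 16, 20 and 3 genes (untreated, those 4, and the difference). With the block Derl3 lost its difference (adjusted p 0.0646), and Ssr1 (0.0366) and Derl2 in DMSO (0.0489) gained calls. Same-lettered libraries did not deviate together (r -0.081 to 0.0528), although in 2 of the 5 comparisons between groups, Vhl against control in DMSO and AZD8330 in Vhl cells, every library correlated best with its own letter. Restricting the set to the 19 genes with whole values was chosen after seeing the data and left 15, 15, 13, 15 and 3 calls in the drug experiment. Depth limits Derl3, Eif2ak3 and the other rows of few counts.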

Other observations

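The untreated table holds 2 mean columns made by the authors. In the authors' deposited table, the column for controls equalled the mean of the 3 control libraries in all 54279 rows, within 0.001. The column for Vhl equalled the mean of control B, control C and Vhl A in all 54279 rows, not that of the 3 Vhl libraries. The authors' deposited table gives 1114 estimated counts for Ero1l in that column, where the 3 Vhl libraries average 4557.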
